A study of Mus musculus with 10 samples.

Results

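The genes for mitochondrial ribosomal proteins were examined in 10 poly(A) RNA-seq libraries of the mouse embryonic stem cell line E14. All rows of the deposited table whose symbol is Mrpl or Mrps followed by a number and an optional letter were taken, which gave 78 of 55401 genes, 49 with an Mrpl symbol (large subunit) and 29 with an Mrps symbol (small subunit). Wild-type E14 cells, which the labels describe as untreated, gave 4 libraries in 2 numbered sets. E14 cells into which CRISPR/Cas9 editing had brought the Y347A change in ANKRD11, a nuclear protein with ankyrin repeats that the series places in contact with cohesin, gave 6 libraries in 3 numbered sets. The labels state neither what a set stands for, such as separate clones or cultures, nor whether the mutation is on both alleles. The p-values between genotypes therefore measure only the spread between the numbered sets, which may be technical.

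The mitoribosome translates the few messenger RNAs made inside mitochondria, which encode core subunits of the respiratory chain and ATP synthase. Its ribosomal RNAs are encoded by mitochondrial DNA, whereas all of its proteins are encoded in the nucleus, made in the cytosol and imported. Some of these proteins have bacterial counterparts (names beginning with u or b in the unified nomenclature), and others are particular to mitochondria (names beginning with m). Embryonic stem cells rely strongly on glycolysis and keep mitochondria of immature form, yet need mitochondrial translation to build their respiratory chain.

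In the values as deposited, mutant libraries held slightly less mitoribosomal protein mRNA in total, with a few genes that moved more strongly, in both directions. TPM (transcript abundance per length, scaled to one fixed total in each library) of the 78 genes summed to 5622.00 and 5746.55 in wild-type set 1 and to 5993.01 and 5860.77 in wild-type set 2. The sums were 5306.00 to 5535.78 in the 6 mutant libraries, with a median of 5461.83, so that every mutant library lay below every wild-type library. This separation depended on the scaling, since after median-of-ratios rescaling of the libraries the sums were 5473 to 5940 in wild type and 5266 to 5845 in the mutant and overlapped. As a share of all TPM this was 0.562% to 0.599% in wild type and 0.531% to 0.554% in the mutant. In bulk RNA, a lower level per cell and a change in the mix of cells cannot be told apart.

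Large-subunit genes summed to 3553.32 to 3863.43 TPM in the wild-type libraries and to 3340.61 to 3541.24 TPM in the mutant libraries, with no overlap as deposited and with overlap after rescaling (3459 to 3829 and 3336 to 3739). Small-subunit genes summed to 2068.68 to 2163.50 TPM in wild type and to 1957.37 to 2070.23 TPM in the mutant, where the highest mutant library, of set 2, passed the lowest wild-type library, of set 1. The ratio of the large to the small sum was 1.66 to 1.81 in wild type and 1.66 to 1.78 in the mutant and overlapped throughout.

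**Figure D1:**
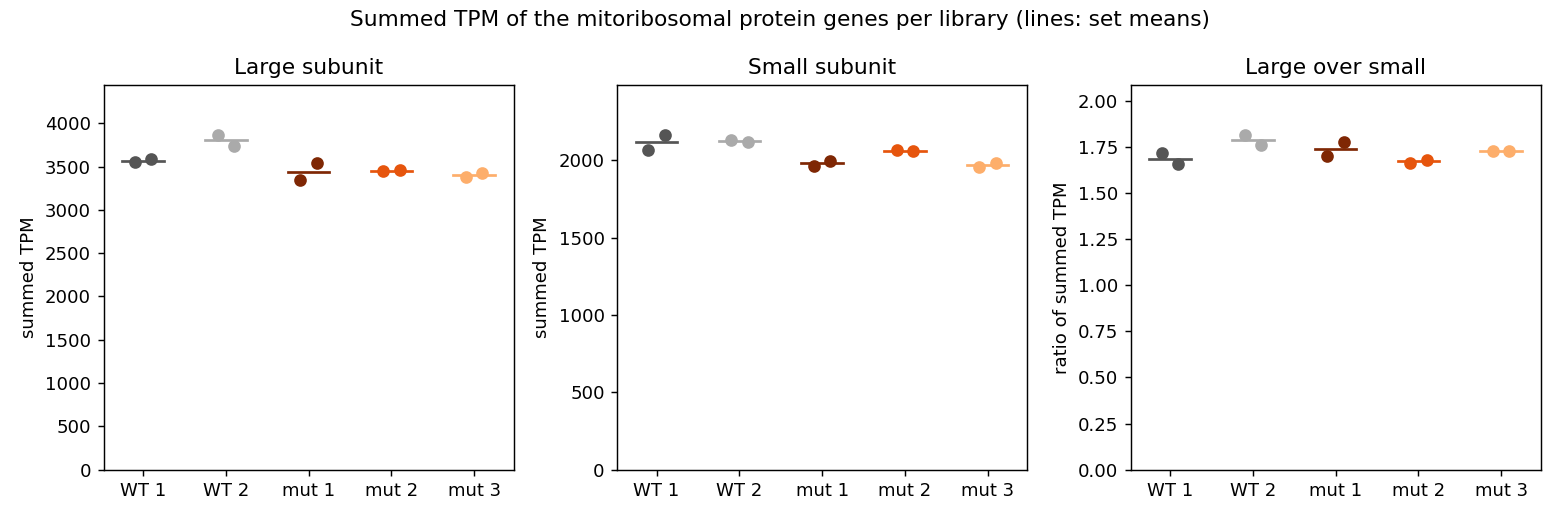
Summed TPM of the 49 large-subunit and the 29 small-subunit genes, and the ratio of both sums, per library (points) and per set (lines: set means) for 2 wild-type and 3 mutant sets. As deposited, large-subunit sums do not overlap between genotypes (they do after rescaling), while the ratios do (1.66 to 1.81 in wild type, 1.66 to 1.78 in the mutant).

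Gene by gene, mutant sets were compared with wild-type sets on log2(TPM + 1) in limma, in a fit over the 12797 genes whose mean reached 1 TPM, and a gene was called at a Benjamini-Hochberg adjusted p under 0.05. All 78 mitoribosomal genes passed the filter, with mean levels from 11.2 TPM (Mrpl19) to 245 TPM (Mrpl42) and a median of 59.8 TPM. Of these, 11 (14.1%) were called, against 17.5% of all tested genes, a share no higher than the background. Called higher were 4 of 78 genes beside 6.97% of all tested genes, and called lower were 7 of 78 beside 10.5%. A further 15 genes had an unadjusted p under 0.05 without being called. With the called genes this made 26 of 78, beside 4472 of all 12797 tested genes.

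The changes were small as a rule. The log2 fold change (mutant minus wild type) lay between -0.20 and 0.20 for 50 of the 78 genes and went beyond 0.50 in size for 3. It was below 0 for 59 of the 78 genes (75.6%), against 54.7% of all tested genes, and the median was -0.11 beside -0.04 over all tested genes. After median-of-ratios rescaling 53, and after quantile normalization 48, of the 78 genes were below 0. In 22 genes all mutant libraries lay below all wild-type libraries, and in 5 genes they lay above. That is 34.6% of the genes in either direction, beside 31.8% of all tested genes (12.4% higher and 19.4% lower).

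The medians of both subunits lay close together. The median log2 fold change was -0.10 for the large subunit (37 of 49 genes below 0) and -0.14 for the small subunit (22 of 29 below 0), a difference between medians of 0.03 for which no test was made. In the large subunit 1 gene was called higher and 4 lower, 10.2% of 49. In the small subunit 3 were called higher and 3 lower, 20.7% of 29. Over all tested genes 17.5% were called, 6.97% higher and 10.5% lower, and the difference between subunits was not tested. With median-of-ratios rescaling the medians were -0.06 and -0.09, and with quantile normalization -0.03 and -0.07, beside a median of all genes close to 0 in both, so the sign held and the size did not. The counts called higher and lower over all genes also moved with the scaling, from 892 and 1350 to 1097 and 1096 or 1073 and 1039. The median by mutant set, relative to the wild-type mean, was -0.10, -0.09 and -0.09 for the large subunit in sets 1, 2 and 3, and -0.19, -0.10 and -0.11 for the small subunit. Over all tested genes it was -0.06, -0.05 and 0 in these sets, so the distance from the background differed between sets. The 2 wild-type sets lay at -0.03 and 0.03 for the large and at -0.04 and 0.04 for the small subunit on the same scale. These values mirror each other because each set is compared with the mean of both.

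**Figure D2:**
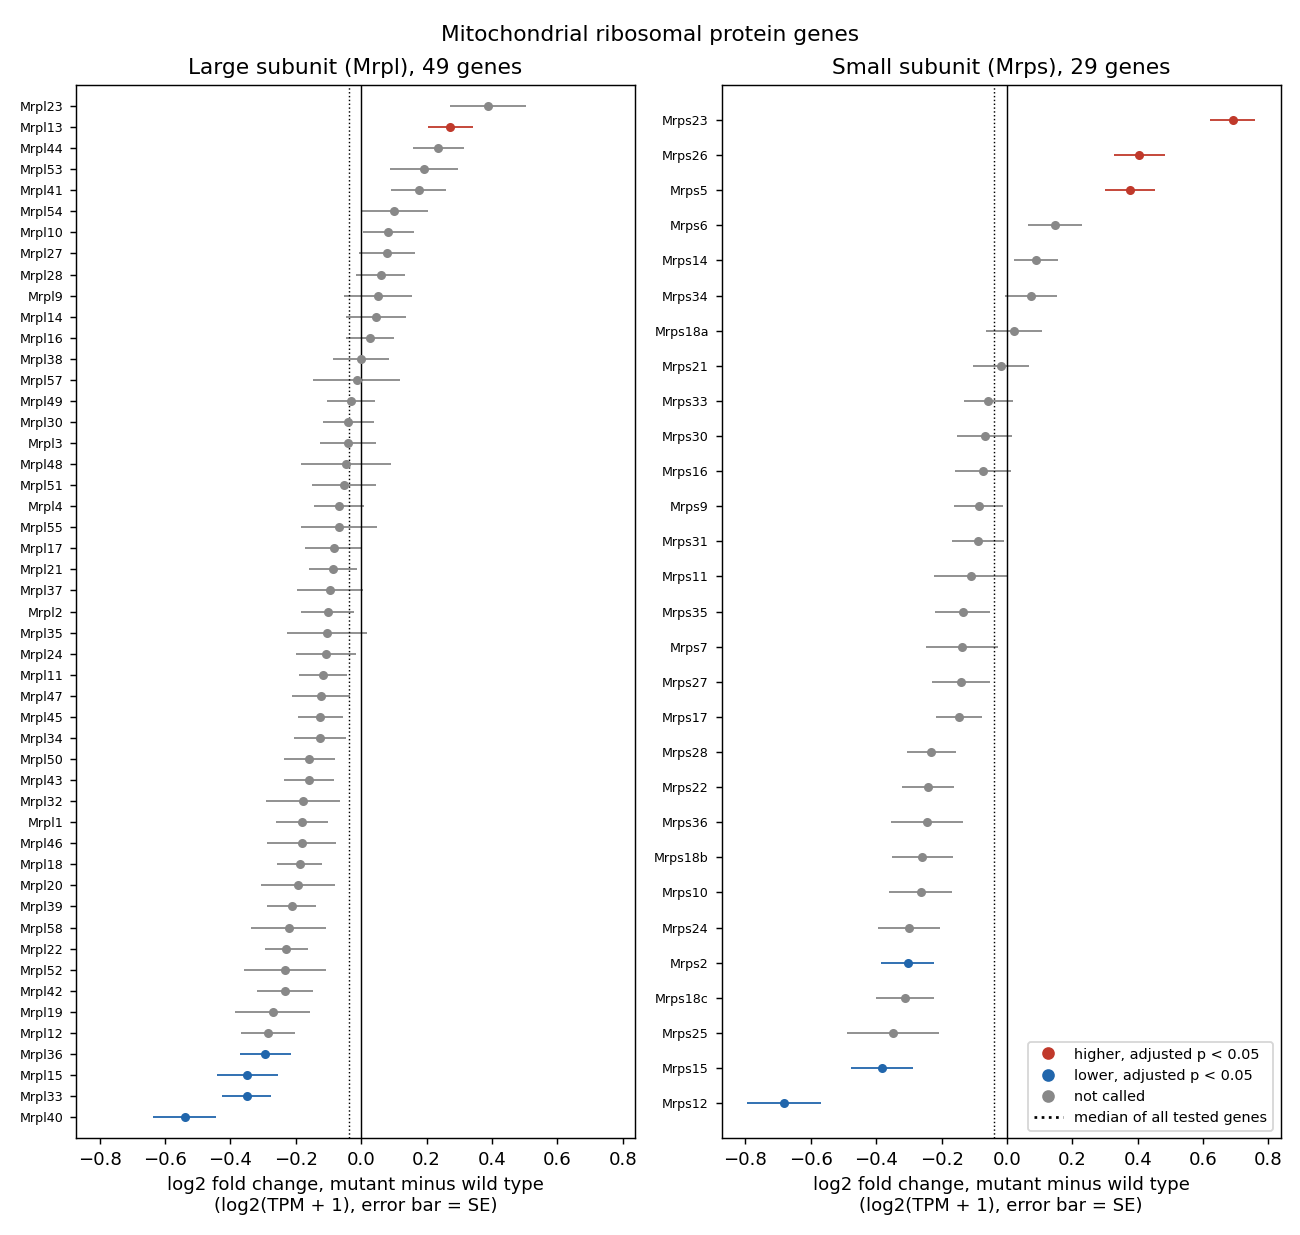
Log2 fold change, mutant minus wild type, on the log2(TPM + 1) scale, with its standard error, for each of the 49 large-subunit and 29 small-subunit genes, ordered by size. Red and blue points are genes called higher and lower, and the dotted line is the median of all tested genes (-0.04). Mrps23 is highest at 0.69 and Mrps12 lowest at -0.68.

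Among the genes called higher, Mrps23 (ENSMUSG00000023723.17, chromosome 11, 88204388 to 88211507, plus strand, mm10), which encodes the mitochondria-specific small-subunit protein mS23, moved most. Its TPM was 65.46 and 87.71 in wild-type set 1 and 71.09 and 92.68 in set 2, against 128.91 and 126.03, 125.48 and 134.11, and 129.02 and 120.05 in mutant sets 1, 2 and 3. The mutant libraries sat close together and all lay above the wild-type libraries, which differed among themselves within each set. Set means were 79.2 ± 3.75 TPM in wild type (SD, n = 2 sets) and 127 ± 2.64 TPM in the mutant (n = 3 sets), a ratio of 1.61, with a log2 fold change of 0.69 ± 0.07 (SE; limma, adjusted p = 0.0039).

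Mrps26 (ENSMUSG00000037740.8, chromosome 2, 130563742 to 130568695, plus strand), which encodes mS26, another mitochondria-specific small-subunit protein, had 25.46, 25.37, 23.51 and 26.84 TPM in the wild-type libraries. It had 31.96 to 36.12 TPM in the 6 mutant libraries, all above wild type, and rose by 0.40 ± 0.08 on the log2 scale (limma, adjusted p = 0.0196). Transcripts annotated to Mrps26 share up to 211 bases at 95% identity or more with transcripts of 25 other genes, and how reads from that stretch were shared out was not tested.

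Mrps5 (ENSMUSG00000027374.12, chromosome 2, 127587222 to 127606829, plus strand) encodes uS5m, whose bacterial counterpart lies near the channel through which mRNA enters the small subunit. It had 95.15, 101.51, 106.40 and 94.58 TPM in wild type and 117.05 to 139.34 TPM in the mutant. The groups did not overlap, and the log2 fold change was 0.38 ± 0.08 (limma, adjusted p = 0.0217). Mrpl13 (ENSMUSG00000022370.13, chromosome 15, 55534094 to 55557748, minus strand), which encodes the large-subunit protein uL13m, was the single large-subunit gene called higher.

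Mrpl13 had 97.16, 102.00, 100.66 and 100.96 TPM in wild type and 114.95 to 126.52 TPM in the mutant, a narrow spread in both groups with no overlap. Its log2 fold change was 0.27 ± 0.07 (limma, adjusted p = 0.0379). The call was lost without the second library of mutant set 2 (adjusted p = 0.0536), and 330 of its exonic bases overlap Mtbp on the opposite strand.

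The strongest fall was that of Mrps12 (ENSMUSG00000045948.8, chromosome 7, 28739641 to 28741820, minus strand). It encodes uS12m, whose bacterial counterpart sits at the decoding centre and bears on the accuracy of translation. Its TPM was 60.50 and 66.52 in wild-type set 1 and 69.36 and 71.32 in set 2, against 41.49 and 44.02, 46.72 and 44.21, and 36.43 and 35.82 in mutant sets 1, 2 and 3. All mutant libraries lay below all wild-type libraries, with set 3 lowest. Set means were 66.9 ± 4.83 TPM in wild type (SD, n = 2 sets) and 41.4 ± 4.81 TPM in the mutant (n = 3 sets), a fall by 0.68 ± 0.11 on the log2 scale (limma, adjusted p = 0.0138).

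Mrpl40 (ENSMUSG00000022706.16, chromosome 16, 18872018 to 18876862, minus strand), which encodes the mitochondria-specific large-subunit protein mL40, was next. It had 86.85, 84.22, 93.61 and 91.72 TPM in wild type and 58.25, 55.90, 69.95, 65.33, 59.73 and 57.37 TPM in the mutant. The groups were well apart, with mutant set 2 above sets 1 and 3, and the gene fell by 0.54 ± 0.10 (limma, adjusted p = 0.0159).

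The other genes called lower all encode proteins with bacterial counterparts. Mrps15 (uS15m, chromosome 4, 126046925 to 126055532, plus strand) had 70.08 to 81.92 TPM in wild type and 47.71 to 66.58 TPM in the mutant and fell by 0.38 ± 0.09 (limma, adjusted p = 0.0362). Mrpl33 (bL33m, chromosome 5, 31596935 to 31664384, plus strand) had 115.31 to 138.76 TPM in wild type and 92.97 to 113.82 TPM in the mutant and fell by 0.35 ± 0.08 (adjusted p = 0.0257). Neither gene overlapped between groups, though the lowest wild-type library of Mrpl33 was close to its highest mutant library.

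Mrpl15 (uL15m, chromosome 1, 4773206 to 4785739, minus strand) had 101.34 and 101.15 TPM in wild-type set 1, 117.61 and 127.09 TPM in set 2 and 80.69 to 95.96 TPM in the mutant. Mrps2 (uS2m, chromosome 2, 28468066 to 28471178, plus strand) had 71.81 to 75.79 TPM in wild type and 55.96 to 64.37 TPM in the mutant. Mrpl36 (bL36m, chromosome 13, 73328513 to 73332178, plus strand) had 59.51 to 67.88 TPM in wild type and 46.56 to 57.40 TPM in the mutant. In all these genes every mutant library was below every wild-type library. They fell by 0.35 ± 0.09, 0.30 ± 0.08 and 0.29 ± 0.08 on the log2 scale (limma, adjusted p = 0.0450, 0.0437 and 0.0433), close to the threshold. Mrpl15, Mrps2 and Mrpl36 were not called after either median-of-ratios rescaling or quantile normalization, and Mrps15 and Mrpl33 were not called after quantile normalization. Of the genes called lower, Mrps12 and Mrpl40 alone stayed called with both, as did all 4 genes called higher.

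**Figure D3:**
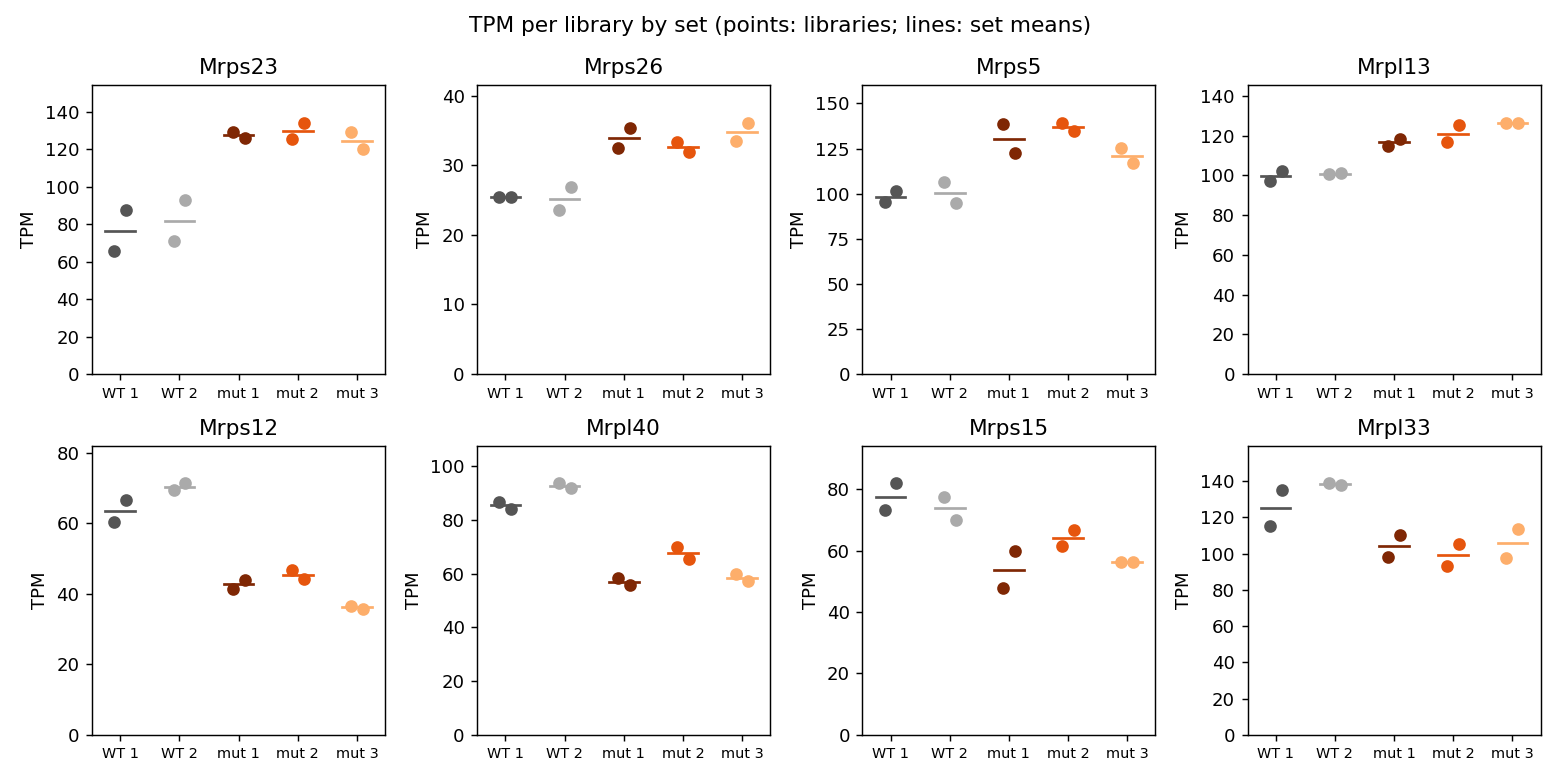
TPM of 8 called genes in each library, by set (points: libraries; lines: set means), on axes that start at 0. In the upper row (Mrps23, Mrps26, Mrps5, Mrpl13) all 6 mutant libraries lie above the 4 wild-type libraries, and in the lower row (Mrps12, Mrpl40, Mrps15, Mrpl33) all lie below.

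The calls rest on few sets. Of the 11 called genes, Mrps23 and Mrps12 alone stayed called without mutant set 1, and Mrps23, Mrps12 and Mrps5 alone without mutant set 3. Without mutant set 2 all but Mrpl13 and Mrpl15 stayed called. Over all tested genes 5.11%, 7.19% and 18.7% were called without mutant sets 1, 3 and 2. Mrps23, Mrps12, Mrpl40, Mrps26 and Mrps5 stayed called when any single library was left out, and the other 6 did not. Mrpl33 was not called without the second library of wild-type set 1 (adjusted p = 0.0730), the first of mutant set 1 (0.0509) or the first of mutant set 3 (0.0571). Mrps15 was not called without the first library of wild-type set 2 (0.0581), the second of mutant set 1 (0.0584) or the first of mutant set 2 (0.0632).

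For Mrpl36, Mrps2 and Mrpl15 the call was lost in more of these fits. Mrpl36 was lost without the second library of wild-type set 1 (0.0906), the first of wild-type set 2 (0.0517), the first of mutant sets 1 (0.0785) and 2 (0.0806) or the second of mutant set 3 (0.0586). Mrps2 was lost without the second library of wild-type set 1 (0.0545), the first of wild-type set 2 (0.0537) or the first of mutant sets 1 (0.0575), 2 (0.0529) and 3 (0.0502). Mrpl15 was lost without the first library of either wild-type set (0.05005 and 0.0534), the first of mutant sets 1 (0.0735) and 3 (0.0541) or the second of mutant set 2 (0.0874). The calls could not be checked without a whole wild-type set, since 1 wild-type set then remained. All 11 genes kept their direction there, which was fixed in advance because their libraries did not overlap between genotypes.

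Some genes lay just outside the threshold. Mrps18c fell short with 150.72 to 179.43 TPM in wild type, 118.51 to 148.72 TPM in the mutant and a log2 fold change of -0.31 ± 0.09 (limma, adjusted p = 0.0553). Mrpl12, whose protein bL12m forms the stalk of the large subunit, had a log2 fold change of -0.28 ± 0.08 (adjusted p = 0.0565). Mrpl23 had 43.47 to 52.02 TPM in wild type and 51.85 to 76.44 TPM in the mutant, with a log2 fold change of 0.39 ± 0.12 (adjusted p = 0.0626). These genes were picked after their values were seen.

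The Mrps18 paralogues descend from one bacterial protein and sit at different places of the mitoribosome, Mrps18b and Mrps18c in the small subunit and Mrps18a (mL66) in the large one. Mrps18b had 131.32 to 146.03 TPM in wild type and 104.67 to 130.69 TPM in the mutant, with a log2 fold change of -0.26 ± 0.09 (limma, adjusted p = 0.0994). Mrps18a had 40.92 to 48.13 TPM in wild type and 41.12 to 51.26 TPM in the mutant, with a log2 fold change of 0.02 ± 0.09. Thus libraries of Mrps18b and Mrps18c did not overlap between genotypes and those of Mrps18a did, but none of the 3 was called and the difference between paralogues was not tested.

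The genes with the highest levels showed no call. Mrpl42 (mL42) had 250.91 to 284.70 TPM in wild type and 206.31 to 248.67 TPM in the mutant, without overlap, and a log2 fold change of -0.23 ± 0.09 (limma, adjusted p = 0.104). Mrps21 (bS21m) had 215.63 to 266.44 TPM in wild type and 219.82 to 252.99 TPM in the mutant. Mrpl17 (bL17m) had 179.37 to 209.26 and 167.01 to 210.84 TPM. The log2 fold changes of Mrps21 and Mrpl17 were -0.02 ± 0.09 and -0.08 ± 0.09, within their errors of 0, and that of Mrpl21 (bL21m) was -0.09 ± 0.07.

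Mrps36 is grouped by its name, but its protein is now known as a component of the alpha-ketoglutarate dehydrogenase complex and not of the ribosome. It had 70.52 to 86.79 TPM in wild type and 52.10 to 76.38 TPM in the mutant, overlapping, with a log2 fold change of -0.24 ± 0.11 (limma, adjusted p = 0.167). With the genes placed by where their proteins sit (Mrps18a and Mrps30 in the large subunit and Mrps36 left out), the medians were -0.10 for 51 large-subunit and -0.14 for 26 small-subunit genes, and the calls did not move between subunits.

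Split by the letter of the unified name, with Mrps36 left out, genes with u or b names and genes with m names gave similar medians. Mrps18a (mL66) and Mrps18b (mS40) stand among the m names, although they descend from a bacterial protein. Of 46 genes with u or b names, 2 were called higher and 6 lower (17.4%), with a median log2 fold change of -0.11. Of 31 genes with m names, 2 were called higher and 1 lower (9.68%), with a median of -0.09. Over all tested genes 17.5% were called. The difference between the classes was not tested.

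The mutant sets were not uniform. The 3 mutant sets differed for 11 of the 78 genes (limma F test over the 10 libraries, adjusted p under 0.05), which is 14.1% beside 19.6% of all tested genes. Tests between sets of one genotype measure only the spread between the 2 libraries of a set, which may be technical. In 9 of the 11 genes set 2 was highest, and in 2 it was lowest. The widest range was that of Mrpl20 (bL20m), with set means of 77.5, 100 and 82.8 TPM in mutant sets 1, 2 and 3 (adjusted p = 0.0211).

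Mrpl37 (mL37) had set means of 50.9, 63.1 and 56.3 TPM (limma, adjusted p = 0.0180), and Mrps7 (uS7m) had 27.2, 34.2 and 30.5 TPM (adjusted p = 0.0173). For these 3 genes set 2 lay in or above the wild-type range, which was 93.47 to 107.14 TPM for Mrpl20, 58.60 to 62.91 TPM for Mrpl37 and 32.33 to 35.06 TPM for Mrps7. Mrps12 also differed between the mutant sets (42.8, 45.5 and 36.1 TPM, adjusted p = 0.0180), with all of them below wild type. Between the 2 wild-type sets none of the 78 genes differed by the same test, beside 2.75% of all tested genes. The lowest adjusted p was 0.0627, and 10 of the 78 genes had an unadjusted p under 0.05, beside 2597 of all 12797 tested genes.

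The letters of known regulators of such genes were looked for in RefSeq promoter windows (GRCm38.p6, 250 bases before to 50 after the gene's start), which matched 69 of the 78 genes with 75 windows. NRF1, ETS-family factors such as GABP, and YY1 are known to bind promoters of nuclear genes for mitochondria. The ETS letters CCGGAAG, on either strand, stood in 34.7% of the members' windows, against 8.86% of all 32851 windows and 18.6% of the windows of tested genes. The YY1 letters ATGGCGGC stood in 16.0%, against 2.24% and 5.09%, and the NRF1 letters GCGCATGC in 10.7%, against 2.71% and 5.58%. At least 1 of the 3 stood in 48.0% of the members' windows, beside 12.7% of all windows and 26.6% of those of tested genes.

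The letters CACGTG (E-box) stood in 9.33% of the members' windows and in 7.15% of all, and GGGCGG (SP) in 52.0% and 35.7%. Against the windows of tested genes, of which 10.3% and 63.7% held them, both shares were lower in the members' windows. Motifs of different kinds shared bases in 2 of the 75 windows, and a match is a description of the letters and not a site. Of the 11 called genes 9 were matched, and 5 of these held NRF1, ETS or YY1 letters.

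These 5 stretches of 30 bases are shown because they put the letters at the RefSeq starts of genes that moved in opposite directions. Gene positions and distances between 5′ ends come from GENCODE, whose starts differ. In GENCODE Mrpl33 begins at 31596935, Mrps5 at 127587222 and Mrps23 at 88204388, so their stretches lie inside these genes. Those of Mrps26 and Mrps12 span the GENCODE 5′ ends at 130563742 and 28741820, with the capitals inside the genes. Mrps23, Mrps26 and Mrps5 were called higher, and Mrps12 and Mrpl33 lower. Capitals mark the ETS letters (as their reverse complement in Mrps23 and Mrps26), the YY1 letters in Mrps5, and the NRF1 letters followed by the ETS letters in Mrpl33. They lie at chr11:88204391-88204420 (plus strand), chr2:130563731-130563760 (plus), chr2:127587417-127587446 (plus), chr7:28741803-28741832 (minus) and chr5:31613932-31613961 (plus), in that order.
Mrps23: ctgccgcttccgCTTCCGGtaacagcccga
Mrps26: gctccgcggccaCTTCCGGgccgggcgcag
Mrps5: ccggctccagcATGGCGGCggccgtacgcg
Mrps12: taaggaggaaccCCGGAAGgggctggaggt
Mrpl33: ggaacccGCGCATGCcCCGGAAGtagtcgt

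The ETS letters thus stood at the RefSeq start of genes called higher as well as lower. In Mrps23 they began 15 bases after the RefSeq start and in Mrps26 14 bases before it. The factors themselves are described with the regulators further on.

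Genes of this family often lie head to head with a neighbour, so that both may share a promoter region. Partners were protein-coding genes on the other strand, transcribed away, with 5′ ends within 1000 bases and no overlap between the genes. Such a partner was found for 18 of the 78 genes (23.1%), against 11.2% of 11345 tested protein-coding genes. Pairs that overlap at their 5′ ends were not counted, such as Mrpl46 and Mrps11, which share 173 exonic bases on opposite strands. The distance between 5′ ends was 26 to 935 bases, with a median of 82. The log2 fold changes of member and partner had the same sign in 9 of the 18 pairs. Of the 18 partners 2 were called, beside 17.5% of all tested genes.

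Mrps5 and Zfp661, a zinc-finger gene whose 5′ end lies 128 bases away, were the single pair with both genes called. Zfp661 had 4.64 to 5.06 TPM in the wild-type libraries and 8.92 to 9.86 TPM in the mutant libraries, far apart, and rose by 0.81 ± 0.11 on the log2 scale (limma, adjusted p = 0.0074). The pair thus rose together, Zfp661 from a much lower level. Ncapd2, a condensin subunit gene, rose by 0.43 ± 0.06 (adjusted p = 0.0096), whereas its partner Mrpl51, 100 bases away, had a log2 fold change of -0.05 ± 0.10.

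Mrps12 lies 172 bases from Sars2, which encodes the mitochondrial seryl-tRNA synthetase. Sars2 had 20.71 to 22.90 TPM in wild type and 16.97 to 21.26 TPM in the mutant, overlapping, with a log2 fold change of -0.21 ± 0.10 (limma, adjusted p = 0.188), beside the fall by 0.68 of Mrps12. Mrpl40 lies 175 bases from Hira, a histone chaperone gene. Hira had 46.79 to 58.98 TPM in wild type and 46.49 to 60.35 TPM in the mutant, with a log2 fold change of 0.08 ± 0.12 (adjusted p = 0.645), beside the fall by 0.54 of Mrpl40.

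The 150 bases before the start of Mrps12 (chr7:28741822-28741971, minus strand, GRCm38.p6), which hold most of the interval it shares with Sars2, and those before Mrps23 (chr11:88204238-88204387, plus strand), the gene that rose most, are shown to set them side by side. Capitals in Mrps12 mark the SP letters as their reverse complement, and the Mrps23 stretch holds none of the letters searched.
Mrps12: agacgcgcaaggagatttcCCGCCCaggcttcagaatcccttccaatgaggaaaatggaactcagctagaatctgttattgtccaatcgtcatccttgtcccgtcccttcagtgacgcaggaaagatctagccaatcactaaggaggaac
Mrps23: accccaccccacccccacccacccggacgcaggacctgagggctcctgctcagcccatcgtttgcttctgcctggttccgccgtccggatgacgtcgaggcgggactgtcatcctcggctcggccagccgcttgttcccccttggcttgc

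**Figure D4:**
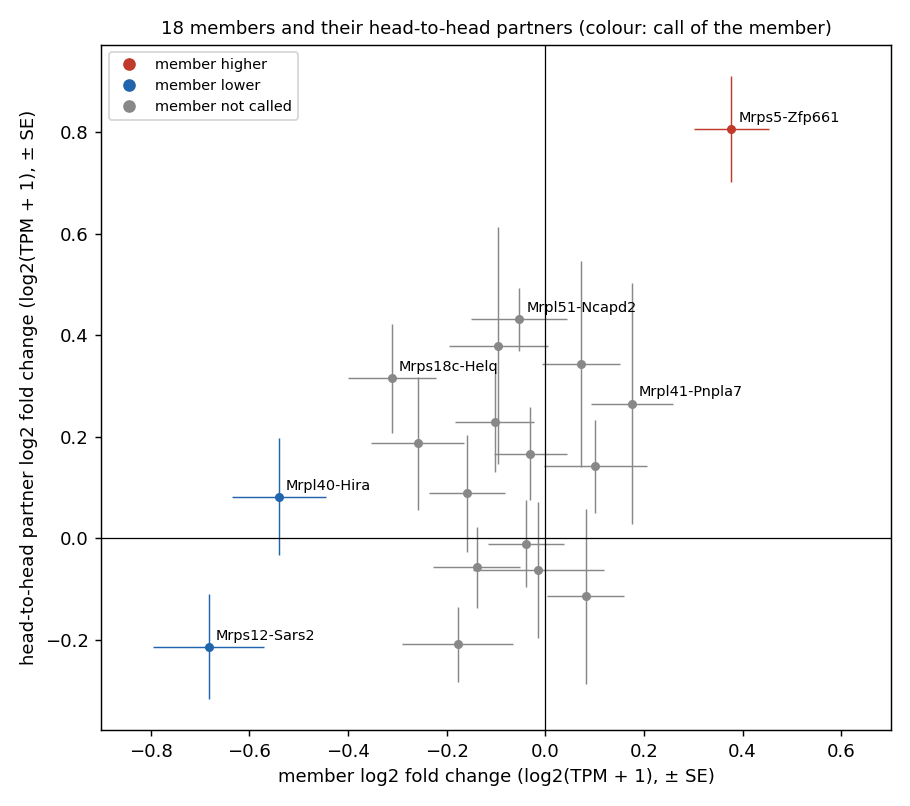
Log2 fold change (log2(TPM + 1), ± SE) of 18 mitoribosomal genes against that of their head-to-head partner, coloured by the call of the mitoribosomal gene. Mrps5 and Zfp661 (0.38 and 0.81) are the single pair with both called, and Mrps12 (-0.68) and Mrpl40 (-0.54) stand beside partners at -0.21 and 0.08.

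Some members have near-identical copies or share exons with neighbours, so that part of their reads may have been divided between genes. Transcripts of 24 pseudogenes elsewhere in the genome matched 19 members over at least 200 bases at 95% identity or more, among them 2 called genes, Mrps5 and Mrps26. None of these pseudogenes exceeded 13.74 TPM in any library, a level reached by the copy of Mrps10, which itself had 68.22 to 97.63 TPM. At their own locus 33 members share annotated exonic bases with another gene, and for 13 of them the same match of transcripts found at least 200 shared bases. The longest exon overlap is that of Mrps25 with Nr2c2 on the opposite strand (4590 bases), and the strand setting of the counting is unknown. Of the called genes, 4 are among the 33, namely Mrpl13, Mrpl33 (261 bases with Gm43809 on the same strand), Mrpl36 (30 bases with Ndufs6 on the opposite strand) and Mrps26 (8 bases with an antisense gene).

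The 78 genes lie on 17 chromosomes, with at most 11 on one (chromosome 11, 1 called). Of the 4 on chromosome 2, 3 were called, Mrps26 and Mrps5 higher and Mrps2 lower, a count chosen after the values were seen.

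The counts of called genes in this and the following lists stand beside 6.97% of all tested genes called higher and 10.5% called lower. Among 5 mitoribosomal proteins with other symbols (Dap3, Ptcd3, Chchd1, Aurkaip1 and Gadd45gip1) none was called by limma. An unadjusted p under 0.05 was found for 2 of them, beside 4472 of all 12797 tested genes. All 5 had log2 fold changes below 0, with a median of -0.21. After median-of-ratios rescaling and after quantile normalization 4 of the 5 were below 0, with medians of -0.17 and -0.12. Ptcd3, an RNA-binding protein of the small subunit, had 107.55 to 121.80 TPM in wild type and 80.90 to 101.51 TPM in the mutant and a log2 fold change of -0.31 ± 0.11 (adjusted p = 0.0860). Of 36 measured assembly and ribosomal RNA factors, 1 was called higher and 1 lower, with a median of -0.02 (0.02 and 0.04 with the rescalings). Lrpprc, which stabilises mitochondrial mRNAs, had 31.26 to 36.60 TPM in wild type and 41.21 to 54.28 TPM in the mutant and rose by 0.49 ± 0.12 (adjusted p = 0.0329, and 0.0541 without the first library of mutant set 1).

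Mrm1, a methyltransferase of the large ribosomal RNA, had 10.38 to 11.23 TPM in wild type and 7.33 to 8.74 TPM in the mutant. It fell by 0.36 ± 0.10 (limma, adjusted p = 0.04995, and 0.0506 to 0.0774 when any 1 library was left out). Of 13 translation factors, 1 was called lower and none higher, with a median of -0.02 (0.02 and 0.00 with the rescalings). This was Tufm, the mitochondrial elongation factor Tu, with 92.37 to 100 TPM in wild type and 69.89 to 83.57 TPM in the mutant. It fell by 0.34 ± 0.08 (adjusted p = 0.0284, and 0.0543 without the second library of mutant set 2).

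Of 15 genes for the expression of mitochondrial DNA, 2 were called lower and none higher, with a median of -0.08. Tfam, which packages mitochondrial DNA and starts its transcription, had 88.86 to 107.39 TPM in wild type and 62.51 to 87.42 TPM in the mutant. It fell by 0.43 ± 0.08 (limma, adjusted p = 0.0210, and 0.0805 without the first library of mutant set 2). Tfb2m, a transcription factor of the mitochondrial polymerase, fell by 0.39 ± 0.10 (adjusted p = 0.0395). Its adjusted p was 0.0505, 0.0622, 0.0654 and 0.0650 without the first library of wild-type set 1, the first of mutant set 1, the second of mutant set 2 and the first of mutant set 3.

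Of 13 tested regulators of nuclear genes for mitochondria, 2 were called lower and none higher, with a median of -0.25. Nrf1, whose letters were searched above, had 55.52 to 60.10 TPM in the wild-type libraries and 33.84 to 43.60 TPM in the mutant libraries, with a wide gap. It fell by 0.55 ± 0.09 (limma, adjusted p = 0.0133). Gabpa, the DNA-binding subunit of GABP, had 77.41 to 88.34 TPM in wild type and 63.54 to 71.00 TPM in the mutant and fell by 0.31 ± 0.07 (adjusted p = 0.0339, and 0.0680 without the second library of wild-type set 2). Yy1 overlapped between groups at a log2 fold change of -0.13 ± 0.13.

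The RNAs made in mitochondria themselves lay in the other direction, though unevenly between mutant sets. Of 15 mitochondrially encoded RNAs, 5 were called higher (33.3%, beside 6.97% of all tested genes) and none lower. All 15 log2 fold changes were above 0 (13 after quantile normalization), with a median of 0.29. In 5 of the 15 the libraries did not overlap between genotypes, all with the mutant higher. That is 33.3%, beside 31.8% of all tested genes (12.4% higher and 19.4% lower). Mutant sets differed for 9 of the 15 and wild-type sets for 3 (limma, adjusted p under 0.05), beside 19.6% and 2.75% of all tested genes. The share of these 15 RNAs in all TPM, by mutant set in order, was 6.86% to 7.03%, 8.67% to 8.71% and 7.81% to 7.98%. Wild-type libraries held 6.19% to 6.98%, so the first mutant range overlapped wild type. mt-Co3 had 3714.49 to 4237.20 TPM in wild type and 5056.88 to 6411.25 TPM in the mutant and rose by 0.55 ± 0.08 (limma, adjusted p = 0.0082). mt-Nd6 had 901.46 to 991.20 and 1323.04 to 1453.54 TPM and rose by 0.55 ± 0.06 (adjusted p = 0.0054), and neither overlapped between genotypes. mt-Nd3 overlapped, with 673.53 to 1212.75 and 988.92 to 1513.23 TPM, and rose by 0.56 ± 0.14 (adjusted p = 0.0365). Its adjusted p was 0.215, 0.118 and 0.0682 without the first library of wild-type set 2, the second of mutant set 1 and the first of mutant set 3.

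The partners of these proteins, the mitochondrial ribosomal RNAs, were not called. mt-Rnr1 had 349.28 to 397.68 TPM in wild type and 393.33 to 554.19 TPM in the mutant, with a log2 fold change of 0.32 ± 0.13 (limma, adjusted p = 0.128). mt-Rnr2 had 275.61 to 368.74 and 268.80 to 426.09 TPM. Selection for poly(A) RNA, with rounds of bead capture per the labels, makes their levels uncertain. The same limit holds for the other mitochondrially encoded RNAs, mt-Nd6 among them.

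Cytosolic ribosomal proteins, the counterparts outside mitochondria, had a median log2 fold change of 0.05 over 85 tested genes (0.09 after median-of-ratios rescaling and 0.00 after quantile normalization), with none called higher and 1 lower by limma (4 and 11 after quantile normalization). That gene was Rpl39l, which had 85.21 to 110.70 TPM in wild type and 38.32 to 65.97 TPM in the mutant and fell by 1.02 ± 0.17 (limma, adjusted p = 0.0146). Of 82 nuclear-encoded respiratory chain subunits, 6 were called higher and 8 lower, with a median of -0.05 (-0.01 and 0.04 with the rescalings, with 7 higher and 2 lower, and 13 higher and 4 lower). The largest changes were those of Cox4i2, an isoform of complex IV subunit 4, which rose by 1.09 ± 0.13 from 4.42 to 5.62 TPM in wild type to 9.72 to 13.93 TPM in the mutant (adjusted p = 0.0062), and of Cox7b2, which fell by 1.25 ± 0.33 (adjusted p = 0.0448). The call of Cox7b2 was lost without the second library of wild-type set 1 (0.0618), either library of wild-type set 2 (0.0508 and 0.0549), the first of mutant set 1 (0.0951) or 2 (0.103) or the second of mutant set 3 (0.0637). It was also lost with a pseudocount of 0.1 (0.0747) and with median-of-ratios (0.0501) or quantile scaling (0.0573). Atp5g1, a gene for the c subunit of ATP synthase, fell by 0.55 ± 0.08 from a wild-type range of 487.55 to 537.33 TPM to 320.96 to 392.85 TPM (adjusted p = 0.0101).

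**Figure D5:**
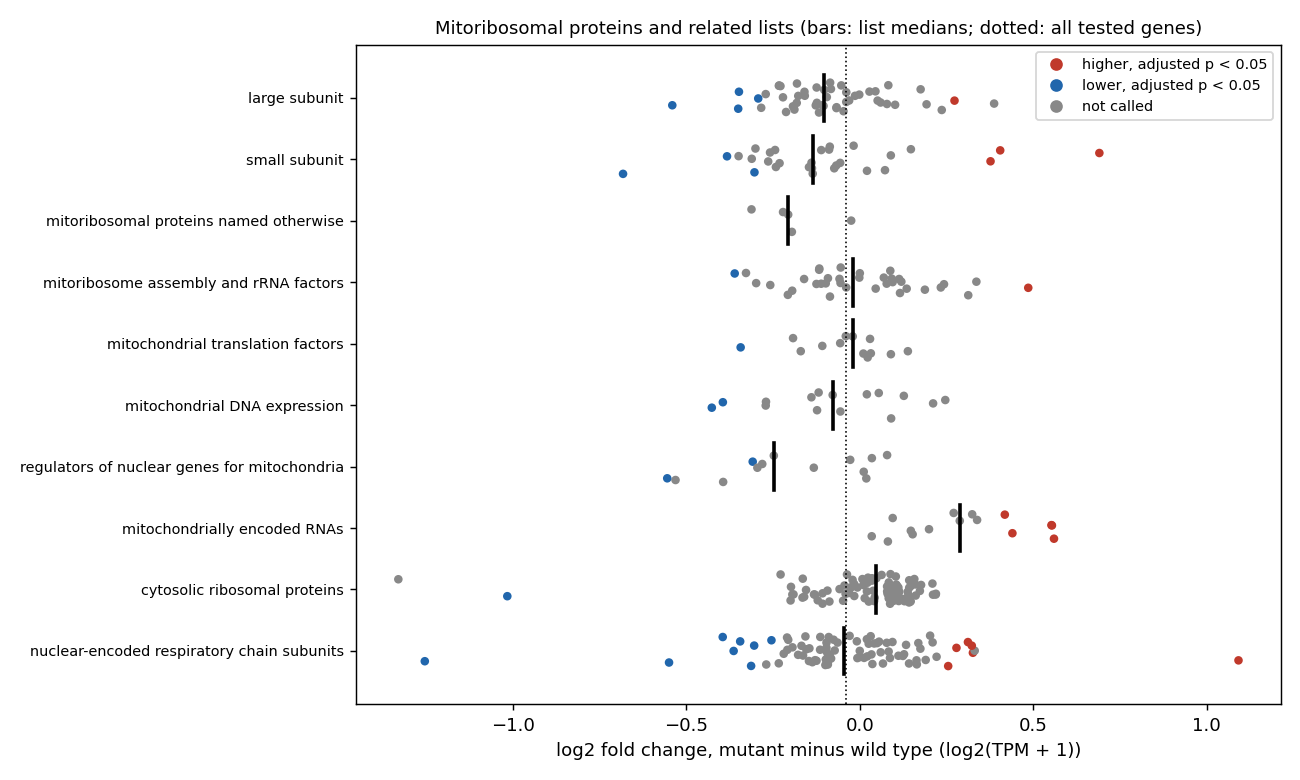
Log2 fold change, mutant minus wild type, on the log2(TPM + 1) scale for the genes of each list (points), with list medians (bars) and the median of all tested genes (dotted line, -0.04). The large and small subunits have medians of -0.10 and -0.14, regulators -0.25, and mitochondrially encoded RNAs 0.29.

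The libraries gave 12473 to 12812 genes at 1 TPM or more, and sequencing depth is unknown because TPM sums to the same total in each. Mitochondrially encoded RNAs took 6.19% to 6.98% of all TPM in wild type and 6.86% to 8.71% in the mutant, and cytosolic ribosomal proteins took 24.0% to 25.03% and 24.3% to 27.0%. A rise of such abundant transcripts lowers all other TPM of a library, and its part in the levels of the mitoribosomal genes was not tested beyond the rescalings given above. Of 10 stem cell markers all were expressed, with summed levels of 11074.9 to 11762.4 TPM in wild type and 9927.65 to 11742.7 TPM in the mutant, and 2 were called higher (Esrrb by 0.28 and Tdgf1 by 0.30; limma, adjusted p = 0.0365 and 0.0269) and 2 lower (Nanog by 0.68 and Zfp42 by 0.50; adjusted p = 0.0067 and 0.0419). Markers of other cell types were low. The 10 fibroblast feeder genes summed to 4.87 to 7.51 TPM in wild type and 5.76 to 6.88 TPM in the mutant, with Dcn and Postn at 0 in every library. Of the 2 feeder genes tested neither was called, Pdgfrb having 2.67 to 3.33 and 4.22 to 5.41 TPM without overlap and Thy1 1.63 to 4.03 and 0.82 to 1.78 TPM. Trophoblast markers (4 genes) summed to 13.6 to 20.59 TPM in wild type and 19.42 to 29.55 TPM in the mutant, with none called. Neural markers (4 genes) summed to 24.17 to 28.06 and 21.45 to 31.32 TPM, and Sox1, at 1.25 to 1.47 and 2.73 to 3.57 TPM, was called higher (0.85 ± 0.15, adjusted p = 0.0169). Endoderm and mesoderm markers summed to at most 1.42 TPM in any library. The part of these markers in the levels of the mitoribosomal genes was not tested. Ankrd11 had a log2 fold change of -0.06 ± 0.10, and its level checks no label, since the edit changes a residue.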

How the data were processed

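The authors deposited TPM for each gene in each library. The submitters' processing notes name Trim Galore, STAR, RSEM, DESeq2 and the build mm10. Tool versions, strand setting and annotation are, in the sources used here, not given. Values have 2 decimals, no depth can be read from them, and 0 per-sample columns were left out. The members and gene lists were chosen with earlier results of these data known.

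The 2 libraries of a set were averaged on log2(TPM + 1), which understates changes of low genes, and the 3 mutant sets were compared with the 2 wild-type sets in limma 3.58.1 under R 4.3.3 (two-sided, variances moderated with a trend, degrees of freedom 3 residual plus 4.01 prior). Genes below a mean of 1 TPM were left out. Adjusted p are Benjamini-Hochberg values over 12797 genes, at a threshold of 0.05. The code was tested on simulated data. TPM are not counts, so no count model was run. Differences between sets were tested on the 10 libraries with 5 set means, against the spread between the 2 libraries of a set. Levels with SD are over set means.

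Positions, types, exon overlaps and 5′ ends come from GENCODE M21 on GRCm38, the assembly of mm10, in which 55141 identifiers and all 78 members matched without their version numbers. Promoter windows are from RefSeq (GRCm38.p6). Copies were sought with blastn among GENCODE transcripts (at least 200 bases at 95% identity). Named were, per subunit, up to 8 genes called in each direction, the 3 with the highest level, the Mrps18 genes, Mrps36, up to 4 with the widest set differences, and per related list up to 3 called in each direction or else the smallest p; others are said to be chosen after their values were seen or stand beside a member. Figures were drawn with matplotlib 3.10.9. Alternatives were other pseudocounts, filters and scalings, libraries as units, blocks by number, variance moderation without trend or robust, and leaving out sets and libraries.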

Additional observations from a re-analysis of the deposited data

Results flagged for a closer look

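In 1 of 50 groups of libraries that were large enough to test (the named mitoribosomal genes by genotype and the summed levels), the lowest or highest library stood apart by Dixon's criterion at the 95% level. This was Mrpl33 in wild type, where the first library of set 1 had 115.31 TPM and the next lowest library 134.91 TPM. Chance gives about 1 such group in 20. Without that library Mrpl33 remained lower in the mutant (limma, adjusted p = 0.0145), and the reason for its level was not tested.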

How the results depend on the processing

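All 11 called genes kept their direction in every alternative run. Only the scalings could have reversed it, since no library of these genes overlapped between genotypes. Without a filter 809 genes were called over the table and 2 members (0 and 0 large-subunit genes higher and lower, 0 small-subunit genes lower). Median-of-ratios rescaling left 2 large-subunit genes lower, at a median of -0.061. Quantile normalization left 1 lower in each subunit, with medians of -0.028 and -0.067. Treating 10 libraries as independent called 5269 genes (4 large-subunit genes higher, 14 lower, 9 small-subunit genes lower), and the set as a random block called 3398 (3, 9 and 9). Without the variance trend 0 large-subunit genes were higher, and 1 gene of each subunit was lower.

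The numbers were not taken to pair the samples. Deviations in same-numbered sets correlated at -0.16 and -0.09, and the differences between replicates 2 and 1 correlated between sets at -0.08 to 0.12, not above 0.1 throughout. With the set number as a block, which leaves 1 residual degree of freedom, 561 genes were called. Among the members these were 0 large-subunit genes in either direction and 1 small-subunit gene in each, Mrps23 higher and Mrps12 lower. With the replicate number as a block 4998 were called (4 large-subunit genes higher, 14 lower, 10 small-subunit genes lower).

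Leaving out a set or a library gave 42 to 2393 calls over all genes, 0 to 2 large-subunit genes higher and 0 to 6 lower, and 0 to 3 small-subunit genes higher and 0 to 5 lower. The large-subunit median ran from -0.155 to -0.059, and the large minus the small median from -0.022 to 0.042. The fewest calls came without wild-type set 2, when 1 wild-type set remained and was assumed to vary like the mutant sets. For the other alternatives the cause was not tested. A pseudocount of 0.1, a filter at 5 TPM and robust moderation kept each count within 1.5 times. Depth is unknown, so no counting error could be given.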
